A study of Mus musculus with 10 samples.

Results

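The M14B carboxypeptidases are a family of zinc enzymes and enzyme relatives, and 8 of its mouse genes were followed here among the 49671 genes of the table: Cpz, Cpe, Cpd, Cpm, Cpn1, Cpxm1, Cpxm2 and Aebp1. Cpz was picked because its transcript was far higher in the p53_activated embryos, so its difference between the groups is a description that supports nothing further. The other 7 genes were taken because they belong to the same family, whatever their values. RNA came from neural crest cells sorted by flow cytometry from single mouse embryos at embryonic day 10.5, with 1 library of polyadenylated RNA per embryo. The p53_activated group held 5 embryos of genotype Wnt1Cre;R26mTmG;p53LSL-25,26/+, and the control group held 5 embryos of genotype Wnt1Cre;R26mTmG;p53+/+, all on a mixed 129/Sv-C57BL/6 background. Both groups thus carried the Wnt1Cre transgene and the R26mTmG reporter, which turns recombined cells green. Wnt1Cre acts in the dorsal neural tube as well as in the crest that leaves it, so the sorted cells can include neural tube cells. The p53LSL-25,26 allele stays silent until Cre removes a stop cassette, and it was carried beside 1 normal Trp53 allele.

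Enzymes of this family cut single basic residues, lysine or arginine, from the C-terminal end of peptides and proteins. In the secretory pathway they finish the work of proprotein convertases, which cut hormone and growth factor precursors after pairs of basic residues, and at the cell surface or in plasma they trim peptides such as the kinins. Some relatives carry a discoidin domain beside the carboxypeptidase-like domain and have lost residues needed for catalysis. Neural crest gives rise to sensory and autonomic neurons, to chromaffin cells that store peptides in granules, and to the mesenchyme of the face, so both enzymes of peptide processing and matrix proteins have a place in its descendants.

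The promoter windows of Cpz and Cpm are shown because Cpz was the gene with the large rise and because Cpm lies beside Mdm2, a well known p53 target. Each runs 5′ to 3′ from 250 bases before to 50 bases after the RefSeq start on GRCm38.p6, for Cpz at chr5:35525577-35525876 on the minus strand and for Cpm at chr10:117629250-117629549 on the plus strand. Capitals mark a match to the p53 half-site consensus, which was searched by name on both strands.
Cpz: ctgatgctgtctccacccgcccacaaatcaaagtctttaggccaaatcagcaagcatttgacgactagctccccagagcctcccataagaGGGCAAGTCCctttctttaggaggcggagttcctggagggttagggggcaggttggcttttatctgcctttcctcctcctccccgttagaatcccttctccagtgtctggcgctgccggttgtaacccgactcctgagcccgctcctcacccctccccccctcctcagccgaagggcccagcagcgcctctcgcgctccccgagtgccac
Cpm: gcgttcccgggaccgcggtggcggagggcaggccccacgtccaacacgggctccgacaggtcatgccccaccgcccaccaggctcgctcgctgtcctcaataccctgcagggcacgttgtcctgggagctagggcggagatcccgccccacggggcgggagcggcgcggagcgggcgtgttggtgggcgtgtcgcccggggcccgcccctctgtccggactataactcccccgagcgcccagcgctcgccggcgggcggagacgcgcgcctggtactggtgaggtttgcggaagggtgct
The Cpz window held 1 match, GGGCAAGTCC, from 160 to 151 bases before the start. Such a match occurred in 2745 (8.36%) of 32851 RefSeq promoter windows of this length. Windows were found for 7 of the 8 genes, all but Cpe, and the other 6 held none. A match with at most 1 mismatch was common, in 70.0% of all windows, and was present for Cpd, Cpm and Cpn1 and not for Cpxm1, Cpxm2 and Aebp1. No member window held 2 adjoining half-sites, which 0.0731% of all windows did. The GC box GGGCGG, read on both strands, was in the windows of both Cpz and Cpm and in 35.7% of all windows.

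Library totals ran from 14644162 to 28379562 counts in p53_activated embryos and from 12368058 to 23514828 in control embryos, and 14528 genes had enough counts to be tested. The genotype labels fitted the transcripts: Cdkn1a, the p53 target that encodes the cell cycle inhibitor p21, averaged 105 ± 11.9 CPM in p53_activated and 7.93 ± 1.59 CPM in control embryos (CPM, a library's counts scaled to a common depth; SD, n = 5 each). Trp53 itself averaged 29.1 ± 2.99 CPM in p53_activated and 18.2 ± 5.12 CPM in control embryos (log2 fold change 0.67 ± 0.17, edgeR adjusted p = 0.0264). The call of Trp53 was lost without p53_activated replicate 4 or control replicate 2 or 3, with an adjusted p of up to 0.0716. All 11 neural crest markers checked were detected, with summed levels of 269 to 325 CPM in p53_activated and 280 to 336 CPM in control embryos. Of these 11, Snai2 was called lower in p53_activated embryos (log2 fold change -0.94 ± 0.26, edgeR adjusted p = 0.0416), and none was called once control replicates 1 and 2 were left out, nor once p53_activated replicates 4 and 5 were. Neuron markers summed to 375 to 585 CPM in p53_activated and 732 to 935 CPM in control embryos, and 9 of the 13 tested were lower in p53_activated embryos at an adjusted p under 0.05, or 7 without control replicates 1 and 2. Over all tested genes and all 10 libraries, 2.74% were called lower. In bulk samples, fewer cells of a type and less RNA per cell cannot be told apart. Control replicates 1 and 2 stood apart from the rest: the ratio of the embryonic globin transcripts Hbb-y to Hbb-bh1 was 1.83 to 2.08 in p53_activated embryos, against 4.97 and 2.69 in those controls and 1.59 to 1.95 in the other controls. Lin28a, an RNA-binding protein whose level falls as embryos mature, was at 10.8 to 24.8 CPM in p53_activated embryos, against 2.96 and 6.21 CPM in those controls and 17.6 to 22.7 CPM in the other controls. Arch mesenchyme markers summed to 656 to 761 CPM in p53_activated embryos, against 789 and 990 CPM in those controls and 619 to 719 CPM in the other controls. Neuroepithelium markers summed to 929 to 1260 CPM in p53_activated embryos, against 791 and 705 CPM in those controls and 1090 to 1190 CPM in the other controls.

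Cpz encodes a secreted carboxypeptidase held in the extracellular matrix, the only member with a cysteine-rich frizzled domain of the kind that binds Wnt proteins. In p53_activated replicates 1 to 5 it was at 71.4, 73.4, 78.4, 47.7 and 45.4 CPM, against 2.56, 3.22, 1.29, 1.40 and 1.75 CPM in control replicates 1 to 5. The lowest p53_activated embryo was thus well above the highest control, and p53_activated replicates 4 and 5 were below the other embryos of their genotype. The same embryos had Cdkn1a at 90.8 and 93.8 CPM, against 111 to 117 CPM in p53_activated replicates 1 to 3. Mdm2 was at 50.4 and 40.5 CPM in them, against 45.5 to 51.4 CPM, and Trp53 at 34.1 and 26.2 CPM, against 27.7 to 28.8 CPM. Neither Mdm2 nor Trp53 set both embryos apart in 1 direction. p53_activated replicates 4 and 5 also had the highest marker sums of their genotype for erythroid cells (6020 and 2910 CPM, against 502 to 1500) and epithelium (124 and 104 CPM, against 40.5 to 60.2). The same held for endothelium (47.7 and 40.2 CPM, against 26.1 to 27.3), neurons (585 and 464 CPM, against 375 to 447) and muscle (52.3 and 58.5 CPM, against 29.9 to 39). Their arch mesenchyme sums were the lowest of their genotype (668 and 656 CPM, against 694 to 761). Neural crest sums (325 and 269 CPM, against 273 to 323) did not set both apart in 1 direction. Nor did those of neuroepithelium (929 and 1260 CPM, against 1040 to 1230) and macrophages (19.9 and 10.4 CPM, against 10.1 to 14.2). The part of these markers in the levels of Cpz was not tested. The means were 63.2 ± 15.5 CPM in p53_activated and 2.04 ± 0.826 CPM in control embryos (SD, n = 5 each), from 5735 counts in p53_activated and 163 in control embryos. The fitted log2 fold change was 4.98 ± 0.26 (SE), a 31.5-fold difference, and only 4 of the 14528 tested genes had a larger one. Without control replicates 1 and 2, the highest controls, it was 5.43. The authors' deposited table gives a log2 fold change of 4.29 ± 0.20 (SE) for Cpz, which may not be on the same scale. Cpz (ENSMUSG00000036596) lies on chromosome 5 from 35502218 to 35525698 on the minus strand of GRCm38, and no exon overlaps another annotated gene.

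**Figure D1:**
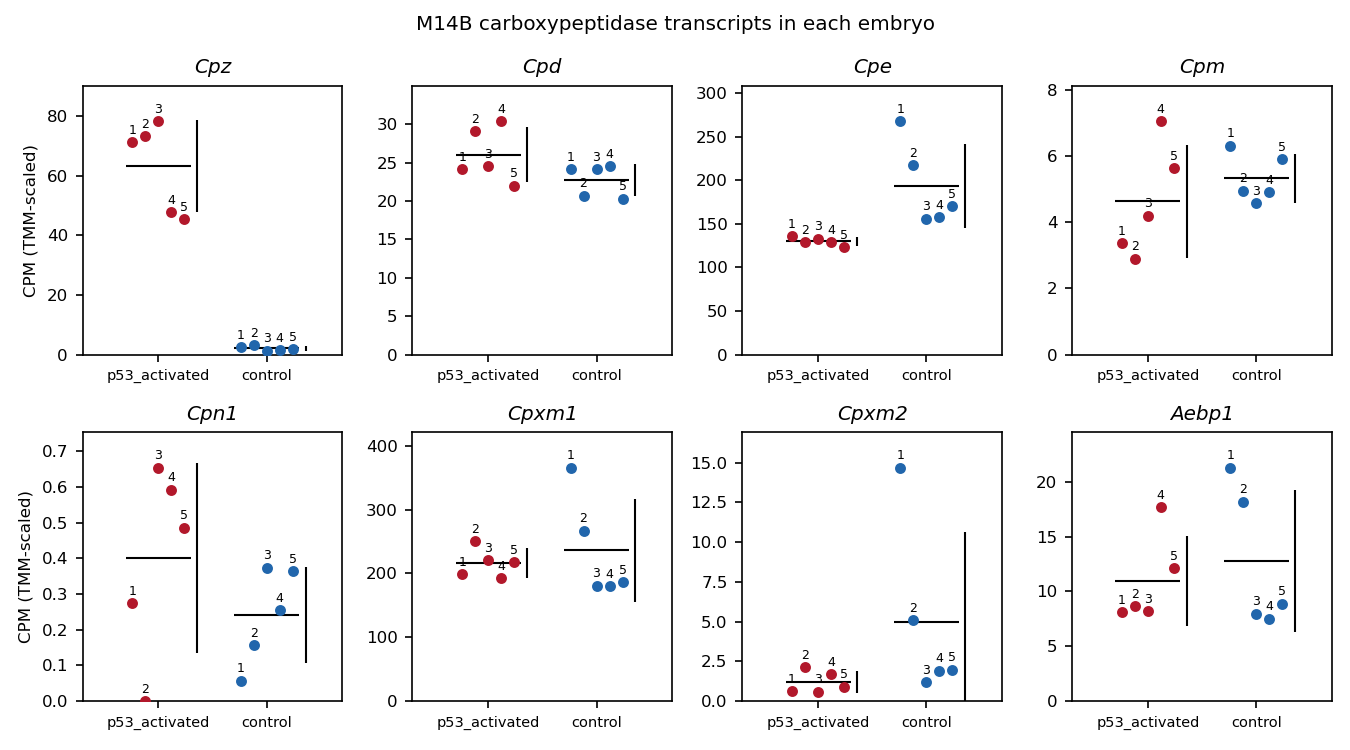
TMM-scaled CPM of the 8 genes in each embryo, with p53_activated embryos in red and control embryos in blue, numbered by replicate; the horizontal line is the group mean and the vertical bar is ± 1 SD, stopped at 0. Cpz lies between 45.4 and 78.4 CPM in p53_activated and between 1.29 and 3.22 CPM in control embryos, Cpe is lower in every p53_activated embryo, and control replicates 1 and 2 are the highest controls for 5 of the 8 genes.

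Of the 7 members with enough counts, Cpz was among the genes called higher, for which it was chosen, and 1, Cpe, was called lower at an adjusted p under 0.05 by edgeR's quasi-likelihood test. Over all genes tested, 7.23% were called, 4.49% higher and 2.74% lower. Nothing is read from the place of Cpz among the genes called higher. Among the 6 tested paralogs that were not chosen by their values, Cpe was called and Cpd, Cpm, Cpxm1, Cpxm2 and Aebp1 were not. Besides Cpz, Cpe was the only member whose groups did not overlap; over all tested genes 8.07% did not overlap, and 4.54% had every p53_activated embryo above and 3.52% every p53_activated embryo below the controls.

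**Figure D2:**
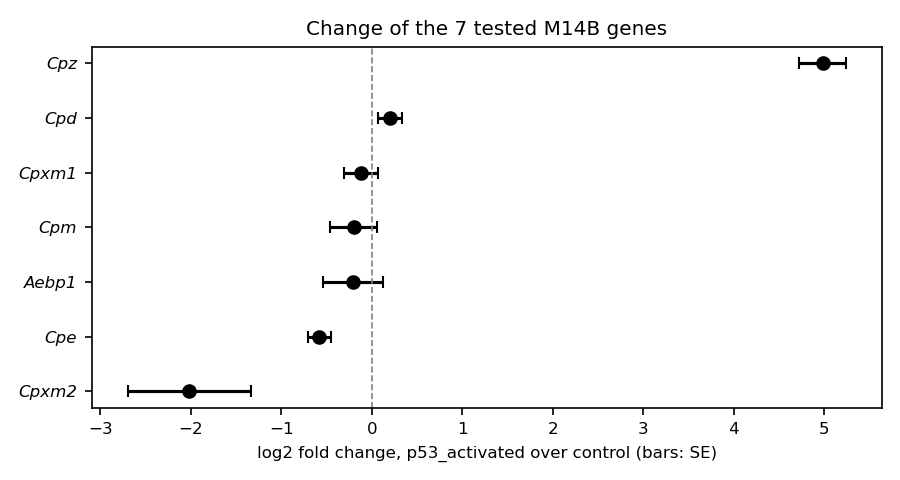
Fitted log2 fold change, p53_activated over control, of the 7 tested genes, with bars of ± 1 SE. Cpz stands at 4.98, Cpe at -0.58 and Cpxm2 at -2.02 with the widest bar, while Cpd, Cpxm1, Cpm and Aebp1 lie between -0.21 and 0.20.

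Cpe encodes carboxypeptidase E, the main enzyme that trims hormone and neuropeptide intermediates in secretory granules. It was at 136, 129, 133, 129 and 123 CPM in p53_activated replicates 1 to 5, against 268, 217, 156, 158 and 170 CPM in control replicates 1 to 5. Every p53_activated embryo was below every control, with control replicates 1 and 2 the highest. Cpe averaged 130 ± 4.78 CPM in p53_activated and 194 ± 48.3 CPM in control embryos (SD, n = 5 each), and it fell by 0.58 ± 0.13 on the log2 scale (SE; fold 0.671, edgeR adjusted p = 0.0165). Without control replicates 1 and 2 together the log2 fold change was -0.31 and the call held (adjusted p = 0.0436). Without p53_activated replicates 4 and 5 together it was -0.53 and the call was lost (adjusted p = 0.0883). Each single embryo could be left out with the call kept, with an adjusted p of 0.00968 to 0.0483. The neuron markers were lower in the same group as Cpe. Neuron sums were 732, 814, 776, 935 and 854 CPM in control replicates 1 to 5. In p53_activated replicates 1 to 5 they were 447, 375, 393, 585 and 464 CPM, while Cpe itself varied little among these embryos. Control replicates 1 and 2, the highest in Cpe, had the highest arch mesenchyme and lowest neuroepithelium sums of the controls, as given above. The part of these markers in the result was not tested. Cpe (ENSMUSG00000037852) lies on chromosome 8 from 64592542 to 64693054 on the minus strand.

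Cpd encodes a membrane enzyme of the trans-Golgi network with several carboxypeptidase-like domains, which works on proteins in the constitutive secretory pathway. It was at 24.1, 29.1, 24.5, 30.4 and 22.0 CPM in p53_activated replicates 1 to 5, against 24.1, 20.7, 24.1, 24.5 and 20.3 CPM in control replicates 1 to 5. The groups overlapped, and the log2 fold change was 0.20 ± 0.13 (SE; edgeR adjusted p = 0.397). Leaving out single embryos moved it only between 0.13 and 0.26. Cpd (ENSMUSG00000020841) lies on chromosome 11 from 76778424 to 76847018 on the minus strand.

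Cpm encodes an enzyme anchored to the outer cell surface by a lipid, where it trims kinins and other peptides. Its levels were 3.37, 2.89, 4.19, 7.05 and 5.62 CPM in p53_activated replicates 1 to 5, against 6.31, 4.95, 4.57, 4.91 and 5.90 CPM in control replicates 1 to 5. p53_activated replicates 1, 2 and 3 were below all controls and p53_activated replicate 4 was above them, and the log2 fold change was -0.20 ± 0.26 (SE; edgeR adjusted p = 0.711). Cpm (ENSMUSG00000020183) lies on chromosome 10 from 117629500 to 117687352 on the plus strand, and it ends 1.5 kb from the end of Mdm2, which is on the opposite strand. Mdm2, which encodes the ligase that marks p53 for breakdown, rose to 47.3 ± 4.41 CPM in p53_activated embryos, against 24.5 ± 1.06 CPM in control embryos (log2 fold change 0.95 ± 0.10, edgeR adjusted p = 2.48e-05). The 2 neighbours thus gave different outcomes in the same fit; their difference itself was not tested.

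Cpn1 encodes the catalytic subunit of plasma carboxypeptidase N, which the liver secretes and which inactivates kinins and complement fragments. It had 4, 0, 10, 18 and 7 counts in p53_activated replicates 1 to 5, against 1, 2, 9, 4 and 5 counts in control replicates 1 to 5. The 0 in p53_activated replicate 2 allows up to 3 counts, or 0.158 CPM, by counting error alone. These are counts at the edge of detection, too few for the test, and a fit of all genes without the filter gave a log2 fold change of 0.72 ± 1.02 (SE; edgeR adjusted p = 0.737). Cpn2, the regulatory subunit that partners Cpn1 in plasma, had 0 counts in every library. Cpn1 (ENSMUSG00000025196) lies on chromosome 19 from 43956307 to 43986556 on the minus strand.

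Cpxm1, Cpxm2 and Aebp1 form the branch with a discoidin domain. Cpxm1 and Cpxm2 encode secreted proteins for which no enzyme activity is known, and Aebp1 encodes a matrix protein that binds fibrillar collagen and is needed for firm connective tissue in mouse and human. Cpxm1 was at 199, 251, 221, 193 and 218 CPM in p53_activated replicates 1 to 5, against 366, 267, 181, 180 and 186 CPM in control replicates 1 to 5. All p53_activated embryos lay between the other 3 controls and control replicates 1 and 2. The log2 fold change was -0.12 ± 0.19 (SE; edgeR adjusted p = 0.751), and without control replicate 1 it turned to 0.09 (adjusted p = 0.733).

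Cpxm2 was at 0.619, 2.15, 0.589, 1.71 and 0.902 CPM in p53_activated replicates 1 to 5, against 14.7, 5.11, 1.20, 1.91 and 1.97 CPM in control replicates 1 to 5. It averaged 1.20 ± 0.702 CPM in p53_activated and 4.97 ± 5.63 CPM in control embryos (SD, n = 5 each), and control replicate 1 alone held 258 of the 409 control counts. The groups overlapped, and the log2 fold change of -2.02 ± 0.68 (SE) did not pass the test (edgeR adjusted p = 0.0985). Without control replicate 1 it was -1.05 (adjusted p = 0.253), and without control replicates 1 and 2 it was -0.47 (adjusted p = 0.676). In DESeq2 Cpxm2 was called lower at -2.04 (adjusted p = 0.00961). The authors' deposited DESeq2 table lists it at -1.02 ± 0.29 (SE, adjusted p = 0.00929). The submitters name an older DESeq2 release than the one used here, so the fold changes may not be on the same scale. For Cpd that table gives 0.19, against 0.2 by edgeR, and for Cpe -0.54, against -0.58. The value for Cpxm2 is thus not read as a smaller change, and the cause of the gap was not tested. Of its exon length, 7.59% is shared with the antisense gene Gm15677, so its counts are uncertain to that extent. Counts assigned to Gm15677 itself were 0 in p53_activated and 1 in control embryos.

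Aebp1 was at 8.12, 8.67, 8.18, 17.7 and 12.1 CPM in p53_activated replicates 1 to 5, against 21.3, 18.2, 7.97, 7.53 and 8.89 CPM in control replicates 1 to 5. Both groups held a higher pair, p53_activated replicates 4 and 5 and control replicates 1 and 2, and the ranges overlapped. The log2 fold change was -0.21 ± 0.33 (SE; edgeR adjusted p = 0.766), and it turned to 0.06 without control replicate 1 (adjusted p = 0.939) and to 0.44 without control replicates 1 and 2 (adjusted p = 0.386). For Cpxm1 the value without both was 0.25 (adjusted p = 0.173). On GRCm38, Cpxm1 (ENSMUSG00000027408) lies on chromosome 2 from 130390775 to 130397574 on the minus strand, and Cpxm2 (ENSMUSG00000030862) on chromosome 7 from 132032687 to 132154739 on the minus strand, inside the annotated span of Fgfr2. Aebp1 (ENSMUSG00000020473) lies on chromosome 11 from 5861947 to 5872088 on the plus strand.

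Levels were then compared between genes per length, as CPM per kb of annotated exon, given as group means with SD over 5 embryos. In p53_activated embryos the order was Cpxm1 at 89.0 ± 9.44, Cpe at 49.8 ± 1.83 and Cpz at 28.2 ± 6.88 CPM per kb. Cpd at 3.12 ± 0.429, Aebp1 at 2.70 ± 1.02, Cpm at 0.775 ± 0.286, Cpxm2 at 0.259 ± 0.152 and Cpn1 at 0.109 ± 0.0724 CPM per kb followed. In control embryos Cpxm1 at 97.0 ± 33.5 and Cpe at 74.3 ± 18.5 CPM per kb led again, followed by Aebp1 at 3.15 ± 1.60, Cpd at 2.73 ± 0.250 and Cpxm2 at 1.08 ± 1.22 CPM per kb. Cpz at 0.911 ± 0.368, Cpm at 0.894 ± 0.124 and Cpn1 at 0.0655 ± 0.0369 CPM per kb came last. The pairs Cpd and Aebp1 in both groups, and Cpxm2, Cpz and Cpm in the controls, did not differ beyond their spread over embryos. Cpz ranked 3 in each p53_activated embryo, against 5 or 6 in the control embryos. With the longest transcript in place of all exons, Cpz ranked 7 and Cpm 6 by their control means.

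**Figure D3:**
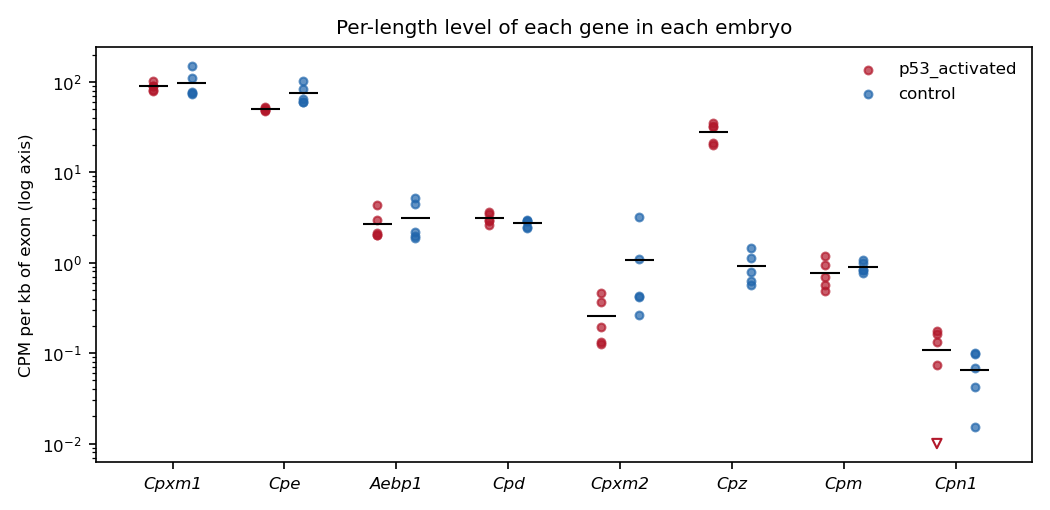
Level of each gene per kb of exon in each embryo on a log axis, p53_activated in red at the left and control in blue at the right of each pair, with a line at the group mean; genes run from the highest to the lowest control mean, and the open triangle at the foot marks the p53_activated embryo with 0 counts of Cpn1. Cpz lies just below Cpe in p53_activated embryos, at 20.2 to 34.9 CPM per kb, and among the low genes in controls, at 0.573 to 1.44 CPM per kb.

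Set against the 14512 tested genes with an annotated exon length on the same per-length scale, Cpz stood above 87.3% in p53_activated embryos and above 24.8% in controls. Cpxm1 was above 95.2% in p53_activated and 95.5% in control embryos, and Cpe was above 91.9% in p53_activated and 94.2% in control embryos. As a share of the family's summed per-length level, Cpz made up 16.1% in p53_activated embryos (12.3% to 19.1%), against 0.502% in control embryos (0.406% to 0.707%). The share of Cpe was 28.8% in p53_activated (25.7% to 30.9%) and 41.7% in control embryos (38.5% to 43.8%), and the ranges did not overlap. Cpxm1 held the largest share in both groups, 51.1% in p53_activated and 53.4% in control embryos. Shares of 1 sum depend on each other, so a larger share of Cpz lowers the rest.

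The summed level of the family was 174 ± 13.4 CPM per kb in p53_activated and 180 ± 55.0 CPM per kb in control embryos (SD, n = 5 each). Without Cpz it was 146 ± 8.46 CPM per kb in p53_activated and 179 ± 54.7 CPM per kb in control embryos, but the control mean was 143 ± 4.36 CPM per kb (SD, n = 3) when control replicates 1 and 2 were left out. With Cpz included, the p53_activated embryos lay at 160 to 192 CPM per kb, below control replicates 1 and 2, at 267 and 203, and above the other 3 controls, at 141 to 148.

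The members also differed in how much they varied among embryos of 1 genotype. Cpe had an SD of 0.05 in log2 CPM over the p53_activated embryos and 0.34 over the controls, while genes of like level had a median SD of 0.15 in both groups. Without control replicates 1 and 2 the control SD of Cpe was 0.07, so the wider control spread rested on them. Only 2.40% of those like genes varied less than Cpe in p53_activated embryos. Cpxm1 had SDs of 0.15 in p53_activated and 0.46 in control embryos, and Cpxm2 of 0.77 in p53_activated and 1.40 in control embryos; without control replicates 1 and 2 the control SDs were 0.03 and 0.37. Control replicates 1 and 2 were the 2 highest controls for Cpz, Cpe, Cpxm1, Cpxm2 and Aebp1, 5 of the 8 members, as they were for 21.2% of all tested genes. Among p53_activated embryos, replicates 4 and 5 were the lowest for Cpz and Cpe and the highest for Cpm and Aebp1. Over all tested genes they were lowest for 17.4% and highest for 19.3%. For Cpe the margin was below the rounding, with p53_activated replicates 2 and 4 both at 129 CPM.

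**Figure D4:**
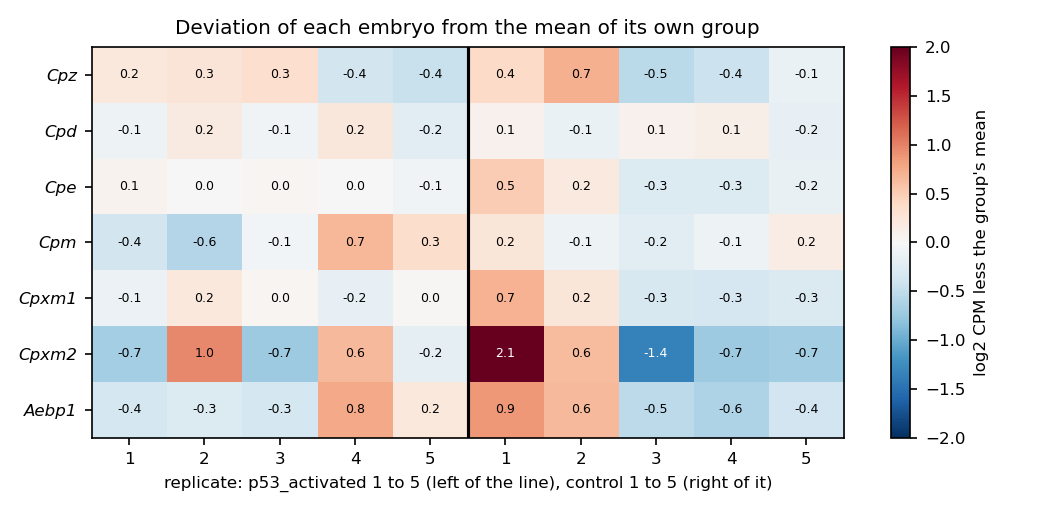
Deviation of each embryo's log2 CPM from the mean of its own group for the 7 tested genes, p53_activated embryos left of the line and control embryos right of it; red is above and blue below the group mean, and colours stop at 2. Control replicates 1 and 2 are above their group mean for Cpz, Cpe, Cpxm1, Cpxm2 and Aebp1, and p53_activated replicates 4 and 5 are below theirs for Cpz.

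The genes whose log2 CPM profile over the 10 libraries, each less its own mean, was most like that of Cpz were Tap1 at a root mean square difference of 0.41, 9530053A07Rik at 0.68, Ptprv at 0.69, Def6 at 0.70 and Zfp365 at 0.73. Tap1, a subunit of the transporter that loads peptides for MHC class I, averaged 28.4 ± 6.75 CPM in p53_activated and 1.21 ± 0.628 CPM in control embryos. Its lowest p53_activated embryos were replicates 4 and 5 too, at 21.7 and 20.7 CPM. Tap1 was picked for its likeness to Cpz over these same libraries, so this shared order adds nothing to the search. Over all tested genes these embryos were the lowest of their genotype for 17.4%. Genes on the opposite strand overlap 3.87% of the exon length of Tap1, 4.94% of that of Ptprv and 14.6% of that of Def6. For Cpe the nearest profiles were those of Hdac11 at 0.08, Snhg18 and 1700027J19Rik at 0.09 each, and Fam20c and Apoa1bp at 0.10 each. Hdac11, a histone deacetylase, averaged 25.3 ± 0.320 CPM in p53_activated and 37.4 ± 8.22 CPM in control embryos, and 17.9% of its exon length overlaps antisense genes.

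Protein-coding neighbours were read to see whether the changes were shared along the chromosome. Hmx1, a homeobox gene of cranial ganglia and the ear, lies 102.5 kb from Cpz and fell to 44.6 ± 6.31 CPM in p53_activated embryos, against 85.6 ± 12.4 CPM in control embryos (log2 fold change -0.94 ± 0.12, edgeR adjusted p = 0.000167). An antisense gene overlaps part of the exons of Hmx1. Trmt44, 30.5 kb away on the other side, did not pass (log2 fold change -0.08 ± 0.12, adjusted p = 0.754). Beside Cpe, the cholesterol synthesis gene Msmo1 had a log2 fold change of -0.39 ± 0.13 (adjusted p = 0.0935). Apart from Hmx1 and Mdm2, none of the tested neighbours was called. Over all tested genes, 7.23% were called, and nothing is read from the number of neighbours called.

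Cpe and Cpd act after the proprotein convertases on peptide precursors, and those genes were read as lists. The share to set beside this and each later list is that over all tested genes, 4.49% called higher and 2.74% called lower. Of 9 tested proteins of dense core granules, the organelles in which Cpe works, 4 were called lower and none higher, with a median log2 fold change of -0.55, against -0.01 over all tested genes. Scg3, a granule protein that binds chromogranin A, averaged 22.1 ± 1.08 CPM in p53_activated and 42.7 ± 7.73 CPM in control embryos (log2 fold change -0.95 ± 0.13, edgeR adjusted p = 0.000188). Chga, which encodes chromogranin A itself, fell by 0.82 ± 0.15 on the log2 scale (adjusted p = 0.00386), and Cyb561, the granule membrane cytochrome, fell by 1.49 ± 0.22 (adjusted p = 0.000411), with 10.3% of its exon length under an antisense gene. Chgb, the related chromogranin B, fell by 0.82 ± 0.21 (adjusted p = 0.0264), and this call was lost without p53_activated replicate 2 (adjusted p = 0.062) or 5 (0.0519) or control replicate 1 (0.064) or 4 (0.0505). Of the 9, 2 had a log2 fold change above 0. Over all 10 libraries no granule gene had an unadjusted p under 0.05 by edgeR in the higher direction. DESeq2 and limma-voom also called 4 lower and 0 higher. Without control replicates 1 and 2 together, 3 of the 4 calls were kept, and 1 granule gene had an unadjusted p under 0.05 in the higher direction. Most neuron markers were lower in the same embryos, as given above, and their part in the granule genes was not tested.

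Of 14 tested peptide precursors, 3 were called lower and none higher, with a median log2 fold change of -0.46; at an unadjusted p under 0.05 there were 6 lower and 0 higher, DESeq2 called 5 lower and limma-voom 1, and neither called any higher. Cartpt, the precursor of the CART peptides, fell by 1.38 ± 0.33 on the log2 scale (edgeR adjusted p = 0.0201), a call lost without p53_activated replicate 3 (adjusted p = 0.0532). Gal, the galanin precursor, had a log2 fold change of -2.25 ± 0.61 (adjusted p = 0.0354) and Sst, the somatostatin precursor, of -1.04 ± 0.28 (adjusted p = 0.0476). Gal kept its call only when p53_activated replicate 2 or 4 or control replicate 5 was the embryo left out, and Sst only when it was control replicate 1; their adjusted p reached 0.0857 and 0.107 without others. Igf2, the most abundant of the list by CPM, did not pass (log2 fold change 0.09 ± 0.21, adjusted p = 0.842).

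Of 12 tested convertases and partners, 1 was called higher and 2 lower, with a median of -0.01. Scg5, the chaperone of the convertase PC2, fell by 1.26 ± 0.30 on the log2 scale (edgeR adjusted p = 0.022), and the call was lost without p53_activated replicate 2 (adjusted p = 0.0568), 3 (0.0517) or 4 (0.0553) or control replicate 2 (0.0548). Pcsk1n, an inhibitor of the convertase PC1, had a log2 fold change of -1.17 ± 0.30 (adjusted p = 0.0377) and kept its call only without control replicate 1, 3 or 5, reaching 0.084 without others. Pam, which amidates peptides after Cpe has trimmed them, had a log2 fold change of 0.69 ± 0.19 (adjusted p = 0.0402) and kept its call only without p53_activated replicate 4 or control replicate 1, reaching 0.0944 without others. Mbtps1, the most abundant of those not called, was at 0.19 ± 0.09 (adjusted p = 0.226).

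Carboxypeptidases outside the M14B branch were mostly not called. Of the digestive and tissue enzymes of the M14A branch, Cpa3 and Cpb1 had 0 counts in every library. Of 6 tested genes for carboxypeptidases that trim tubulin and their partners, Svbp was called: this partner of the vasohibin enzymes averaged 118 ± 9.34 CPM in p53_activated and 149 ± 3.88 CPM in control embryos (log2 fold change -0.34 ± 0.08, edgeR adjusted p = 0.0183). It was not called without control replicates 1 and 2 together (-0.31, adjusted p = 0.0626). Of 6 other carboxypeptidases tested edgeR called 0, with 1 higher and 2 lower at an unadjusted p under 0.05; DESeq2 called 1 lower and limma-voom 0. The lysosomal Ctsz was below its controls in every p53_activated embryo yet missed the threshold (log2 fold change -0.34 ± 0.11, adjusted p = 0.0758).

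The frizzled domain that sets Cpz apart is shared with Wnt receptors, secreted Wnt inhibitors and a collagen. Of 19 tested genes with this domain, other than Cpz, 2 were called higher and 1 lower, with a median log2 fold change of 0.18. Col18a1, the basement membrane collagen XVIII, averaged 192 ± 16.9 CPM in p53_activated and 115 ± 16.6 CPM in control embryos (log2 fold change 0.74 ± 0.11, edgeR adjusted p = 0.00036). Sfrp5, a secreted Wnt inhibitor, averaged 1.85 ± 0.407 CPM in p53_activated and 4.95 ± 0.777 CPM in control embryos (log2 fold change -1.41 ± 0.26, adjusted p = 0.00314). Both calls were kept without any single embryo. Fzd10, a Wnt receptor, had a log2 fold change of 0.59 ± 0.16 (adjusted p = 0.0362) and kept its call only without p53_activated replicate 1 or control replicate 3 or 5, reaching 0.0987 without others. Of 16 tested Wnt ligands none was called by edgeR, DESeq2 or limma-voom, with 2 higher and 2 lower at an unadjusted p under 0.05 by edgeR and a median of -0.32. Without p53_activated replicates 4 and 5 together, 2 Wnt ligands were called lower. Wnt4, a ligand that CPZ trims in the chick, averaged 73.8 ± 6.93 CPM in p53_activated and 61.6 ± 16.7 CPM in control embryos (log2 fold change 0.26 ± 0.16, adjusted p = 0.36).

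Of 9 tested genes with the discoidin domain of the Cpxm1 branch, 1 was called higher and 1 lower, with a median log2 fold change of 0.02. Mfge8, a secreted protein that links dying cells to phagocytes, averaged 323 ± 38.8 CPM in p53_activated and 209 ± 37.4 CPM in control embryos (log2 fold change 0.63 ± 0.12, edgeR adjusted p = 0.00447). Nrp1, a receptor for semaphorins and VEGF, averaged 27.5 ± 4.84 CPM in p53_activated and 44.3 ± 2.11 CPM in control embryos (log2 fold change -0.69 ± 0.13, adjusted p = 0.00356). Among 15 tested collagens and fibre assembly genes, with which Aebp1 works, only Loxl1, a cross-linking oxidase of elastic fibres, was called (log2 fold change -1.21 ± 0.32, adjusted p = 0.034). It kept its call only without p53_activated replicate 4 or control replicate 3 or 5, and its adjusted p reached 0.0865 without others; DESeq2 called 3 of the list lower and limma-voom 0. Of the genes for kinin and anaphylatoxin signalling, whose peptides Cpm and Cpn1 cut, 3 of 12 could be tested and none was called by edgeR, DESeq2 or limma-voom, with 1 lower at an unadjusted p under 0.05 by edgeR; the peptidase Mme, for example, was at -0.47 ± 0.20 (adjusted p = 0.163).

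Without control replicates 1 and 2 together, 1 of the 3 called convertases and partners (Pam), 1 of the 3 called peptide precursors (Sst), 2 of the 3 called frizzled domain genes (Col18a1 and Sfrp5) and both called discoidin genes were still called, and Loxl1 was not. Without p53_activated replicates 4 and 5 together, none of the 3 convertases and partners was called, nor was Fzd10, Sst or Loxl1, while all 4 granule genes, Svbp, Gal, Cartpt, Col18a1, Sfrp5, Mfge8 and Nrp1 were.

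**Figure D5:**
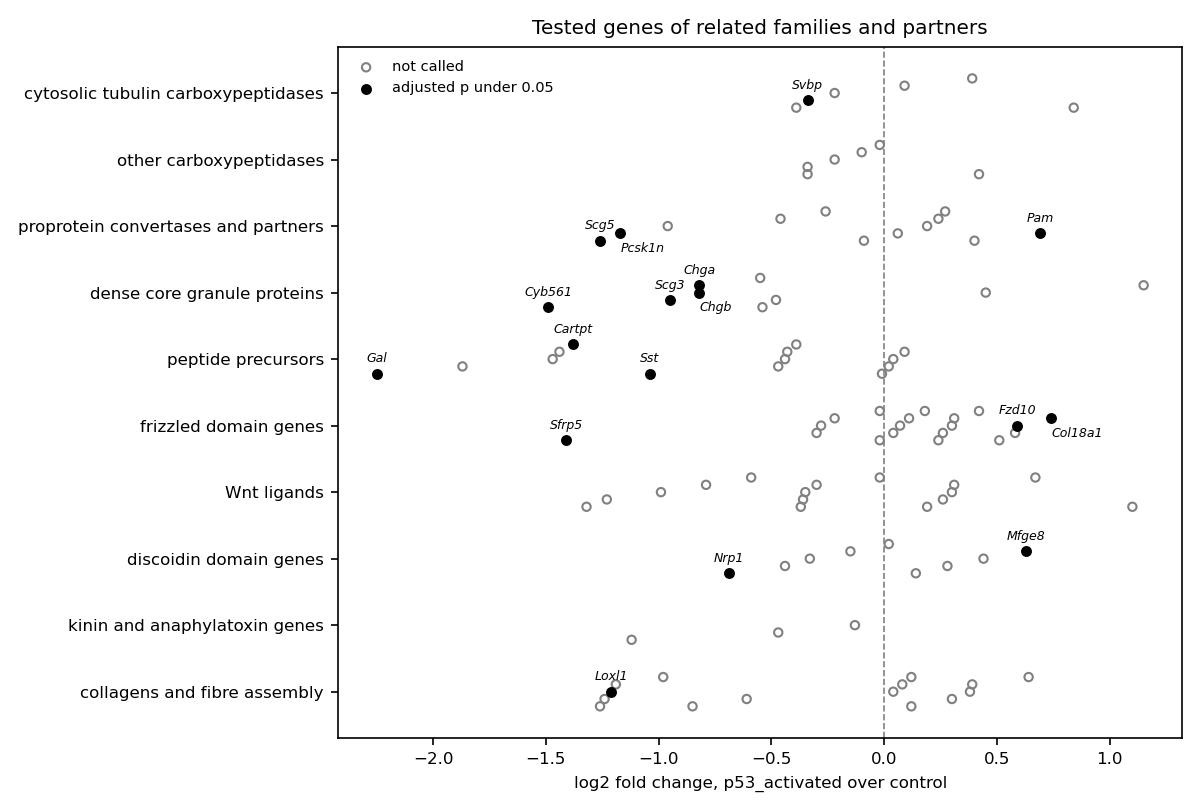
Fitted log2 fold change, p53_activated over control, of each tested gene in 10 lists of related enzymes, partners, substrates and domain relatives, 1 row per list; filled points passed an adjusted p of 0.05 and are named, open points did not. Dense core granule proteins hold 4 filled points, all between -1.49 and -0.82, and the Wnt ligands hold none.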

How the data were processed

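Counts per Ensembl gene were deposited by the authors as raw whole numbers, 1 column per library. The other deposited table is the authors' test of the groups. Per the file headers its columns are the average normalized count, which is a signal, the log2 fold change and its error, the test score, and the raw and adjusted p-value. GRCm38, DESeq2 1.14.1, HTSeq 0.6.1, SAMtools 1.3.1 and HISAT2 2.0.4 are listed in the submitters' processing notes. No source used here gives the annotation release or the strand setting, so reads of a gene and of one that overlaps it could not be separated. Of 49671 genes, 27213 had a count, and edgeR's filterByExpr (minimum count 10, minimum total 15) kept 14528. Counts were scaled by TMM and fitted over all 10 libraries with the robust quasi-likelihood F-test of edgeR 4.0.16 in R 4.3.3, with no covariate. Adjusted p is by Benjamini-Hochberg over all tested genes, with a threshold of 0.05, and the SE is the log2 fold change over the square root of F. CPM are TMM-scaled, with a prior count of 2 for log2 CPM. Replicates are separate embryos, and every pair of libraries differed by more than sampling noise (chi-square over its degrees of freedom from 16.3 to 79.6).

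Positions, exon lengths and neighbours are from GENCODE M21 on GRCm38, which held 49412 (99.48%) of the identifiers, and promoter windows are from RefSeq on GRCm38.p6. The profile search used genes with a mean log2 CPM over 1 and named 5 for each called member. Genes of like level had a mean within 0.5 log2 CPM. The text names the 8 members, Trp53, Cdkn1a and Mdm2, the neighbours, and of each list up to 5 called genes and up to 2 of the highest that were not called. Lin28a, Hbb-y, Hbb-bh1, Cpn2, Cpa3 and Cpb1 fall outside this rule and were chosen with their values known. 1 list gene that the rule names is not reported here. The members and lists were chosen with earlier results of these data known. Alternatives were RLE, upper quartile and total count scaling, no filter or at least 1 CPM in 5 libraries, DESeq2 1.42.0, voom in limma 3.58.1, non-robust dispersions, a term for replicate number or embryo sex, exon length by the longest transcript, and leaving out each library. Leaving out control replicates 1 and 2, or p53_activated replicates 4 and 5, was added after the data were seen.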

Additional observations from a re-analysis of the deposited data

How the results depend on the processing

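Over all genes, 652 were called higher and 398 lower. The lower count was 699 by DESeq2, 245 with embryo sex as a term and 194 without control replicates 1 and 2; without single embryos it ran from 192 to 433, and the higher count from 430 to 707. The members called lower were 2 by DESeq2, where Cpxm2 joined at -2.04 (adjusted p = 0.00961), and 0 without p53_activated replicates 4 and 5, where Cpe was at -0.53 (adjusted p = 0.0883). Over 22 alternatives the log2 fold change of Cpe ran from -0.64 to -0.31, with 21 calls, and that of Cpz from 4.83 to 5.43. Without single embryos Cpxm1 ran from -0.21 to 0.09 and Aebp1 from -0.46 to 0.06, turning positive without control replicate 1; without control replicates 1 and 2 they were at 0.25 and 0.44. Cpd and Cpm kept their direction and stayed uncalled in every alternative tried. With the longest transcript, Cpz ranked 7 and Cpm 6 per length in controls. The causes were not tested.

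Replicate numbers are not stated to pair embryos, and 1 of 5 same-numbered pairs deviated together with r over 0.1 and 1 of 5 embryos matched its own number best. With the replicate number as a block, 538 genes were called higher and 266 lower, 1 member each way, with Cpz at 5.00 and Cpe at -0.54 (adjusted p = 0.0196). Cpn1 had too few counts to pass the filter, and the control level of Cpz rests on 163 counts and the p53_activated level of Cpxm2 on 124.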
